A study of Mus musculus with 2 samples.

Results

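The genes described here encode the proteins of the cytosolic ribosome, and the measurement is how much of their messenger RNA was recovered with HuR (Elavl1), an RNA-binding protein. Members were the array clones whose current gene symbol is that of a large subunit protein (Rpl or Rplp followed by its number) or of a small subunit protein (Rps followed by its number, or Rpsa). Of 16896 clones on the array, 188 were members. They named 70 of the 8109 named genes, with 42 genes on 117 clones for the large subunit and 28 genes on 71 clones for the small subunit. The rule used the names alone and no measured value.

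The study has 2 samples of C2C12, an immortal mouse myoblast line, both from proliferating cells with no treatment. The HuR sample is RNA recovered from a cell extract with an antibody to HuR, and the IgG sample is RNA recovered from such an extract with a control antibody, called IgG1 in the file headers. The cells grew in serum-rich medium, and the recovered RNA was copied into radioactive cDNA for the array. Each sample was read in 3 array runs, 1 without a number, run 3 and run 4. The labels do not say if a run is a new hybridisation or a new immunoprecipitation, so each antibody counts as 1 sample. No significance test between the antibodies was possible, and the spread quoted is that between runs. The extract is a bulk one, so less RNA in each cell and fewer cells holding the RNA cannot be told apart. The RNA of the extract before immunoprecipitation was not analysed here, so recovery cannot be set against abundance. Of 10 myoblast marker genes, 0 had a named clone, and 1 of 12 contractile muscle markers had one, outside the brighter 50% of clones. The muscle identity of the cells could therefore not be checked on these arrays. Of 6 fibroblast markers, 3 had a clone in the brighter 50%, as did 6 of 7 epithelial and liver markers and 1 of 4 blood markers. Mean centred scores of the markers with a clone were -1.5 to 0.66 with HuR and -2.03 to 0.56 with IgG for fibroblasts, and -0.58 to 0.98 with HuR and -0.56 to 0.93 with IgG for epithelium and liver. The blood marker was at -0.15 with HuR and -0.01 with IgG. Their part in the results was not tested.

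The cytosolic ribosome is built from a small subunit, which reads the messenger RNA, and a large subunit, which joins amino acids into protein. Most of its proteins are needed in equal numbers, and the messenger RNAs of ribosomal proteins are among the most abundant of growing cells. Most of these RNAs begin with a terminal oligopyrimidine tract, a C followed by a run of C and U letters, through which growth signals control their translation as a group. HuR is best known for binding AU-rich and U-rich stretches near the 3′ end of short-lived messenger RNAs. Processed pseudogenes of ribosomal protein genes are common in the mouse genome, and a spotted cDNA need not tell their transcripts from those of the parent gene.

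The sequences at the transcription start are shown because the pyrimidine tract is the feature by which this class of messenger RNA is known, and some of the annotated starts hold it while others do not. A start region was found in the RefSeq table of the build GRCm38.p6 for 53 of the 70 genes. Each window below holds 15 bases before the annotated start and 15 bases from it on, and capitals mark a run of at least 8 C or T letters that reaches within 5 bases of the start. The first 5 genes hold such a run and the last 3 do not, and the set takes in the lowest and the highest genes of the comparison with IgG.
Rps18 (chr17:33955651-33955680, minus strand): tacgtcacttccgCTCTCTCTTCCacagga
Rpl35 (chr2:39005117-39005146, minus strand): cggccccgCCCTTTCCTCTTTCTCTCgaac
Rplp2 (chr7:141447636-141447665, plus strand): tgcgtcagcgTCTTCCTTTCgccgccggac
Rps6 (chr4:86857353-86857382, minus strand): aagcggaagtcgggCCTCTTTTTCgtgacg
Rps24 (chr14:24490663-24490692, plus strand): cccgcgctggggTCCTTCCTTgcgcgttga
Rpl9 (chr5:65391417-65391446, minus strand): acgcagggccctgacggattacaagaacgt
Rplp0 (chr5:115559452-115559481, plus strand): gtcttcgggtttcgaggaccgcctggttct
Rpl6 (chr5:121204486-121204515, plus strand): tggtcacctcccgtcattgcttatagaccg

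Such a run was found in 20 of the 53 genes (37.7%), against 11.0% of 27025 genes in the table and 12.5% of the 2666 measured genes with a start region. Only the strand of the transcript was searched, and where a gene has several annotated starts the one with the longest run was taken. A C followed by 4 pyrimidines exactly at an annotated start was found in 11 of the 53 genes (20.8%), against 3.01% of all genes in the table. The table's starts need not be the ones used in C2C12 cells, so a window without the run says only that those letters are not there.

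No clone of a ribosomal protein gene reached 1 z score unit above the IgG control in the brighter part of the array. Values are z scores, which the authors scaled within each run, and each run was centred on the median of its array section. A difference subtracts the centred IgG value from the centred HuR value of the same run number, in z score units, and is averaged over the 3 run pairs. The labels do not say that same-numbered runs were done together, so the pairing is an assumption. The mean over the 3 pairs does not depend on it, while values by pair and SDs over pairs do. Of the 188 member clones, 180 lay in the brighter 50% of clones by mean signal, on which the results rest, and these 180 still covered all 70 genes. The number of these clones at least 1 unit higher with HuR was 0 of 180, against 1.56% of the 8450 clones in the brighter 50%. At least 1 unit lower were 0 of 180, against 0.0947%. Clone differences ran from -0.53 to 0.34, with a median of -0.20. The 8 dimmer clones ran from -0.62 to 0.52.

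As a group the 70 genes lay a little below IgG in the mean. Their median difference was -0.19 ± 0.37 (SD of the medians of the 3 run pairs), against -0.04 for the 4345 other genes measured, where a gene takes the median of its clones. Below 0 were 61 of 70 genes (87.1%), against a background of 57.5% of all genes. The size of the group's median was smaller than its spread between run pairs. At the level of clones 151 of 180 (83.9%) were below 0, against 55.4% of all clones.

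The median of the 70 genes was 0.73, 1.13 and 0.94 in the unnumbered HuR run, HuR run 3 and HuR run 4. In the IgG sample it was 1.08 in the unnumbered run, 0.87 in run 3 and 1.42 in run 4. The runs of both antibodies overlapped, with HuR run 3 above 2 of the 3 IgG runs and IgG run 3 below 2 of the 3 HuR runs. The median of all other genes stayed between 0.49 and 0.59 in the HuR runs and between 0.49 and 0.60 in the IgG runs.

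**Figure D1:**
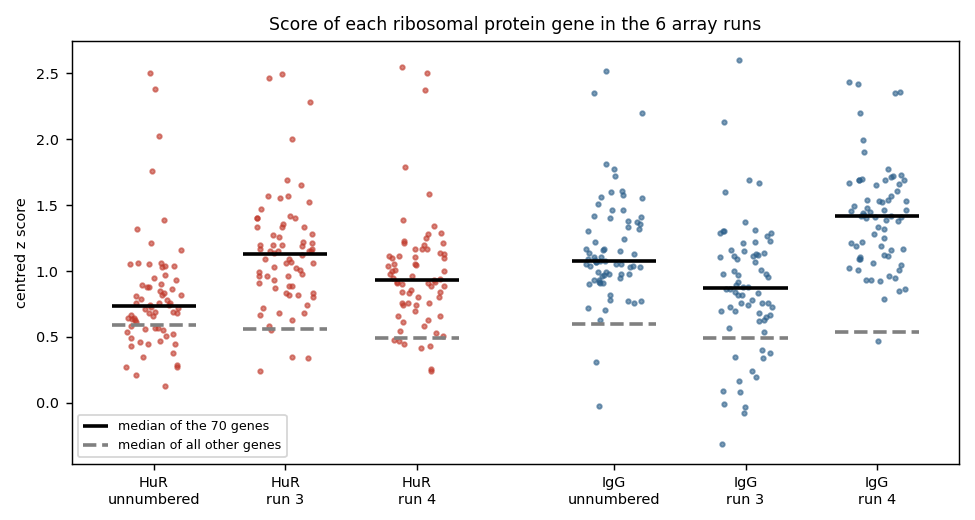
Centred z score (vertical axis) of each of the 70 ribosomal protein genes in the 3 HuR runs (red points, left) and the 3 IgG runs (blue points, right). Solid lines are the median of the 70 genes and dashed lines the median of the 4345 other genes. The solid line is at 1.13 in HuR run 3 and at 0.87 in IgG run 3, while in the other pairs the HuR line is the lower one.

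The genes moved together from one run pair to the next. By run pair, their median difference was -0.38 (unnumbered), 0.23 (pair 3) and -0.45 (pair 4), against -0.12, 0.04 and -0.05 for all other genes in the same order of pairs. In the unnumbered pair 69 of 70 genes were below 0 (background 58.6%), in pair 3 64 of 70 were above 0 (background 56.1%) and in pair 4 67 of 70 were below 0 (background 56.4%). The full order of below, above and below 0 was shown by 61 of 70 genes (87.1%), against 27.5% of all genes, and by 138 of 180 clones (76.7%), against 24.0% of all clones. This order was chosen for counting after the values were seen. Within a pair the 70 genes lay close to one another. By the same order of pairs, their interquartile range was 0.16, 0.23 and 0.28, against 0.65, 0.36 and 0.41 for all other genes. Of the 70 genes, 49 take the median of several clones, against 660 of all 4415 genes. A median over clones can narrow the spread of gene values, and its part in this gap was not tested.

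The size of the median, though not its sign, varied with the run pair left out. The median was -0.06 over the other pairs when pair 4 was left out, with 46 of 70 genes below 0 (65.7%), against 51.3% of all genes over the same pairs. Without pair 3 it was -0.42, with 69 of 70 below 0 (98.6%), against 59.6%. Without the unnumbered pair it was -0.10, with 53 of 70 below 0 (75.7%), against 57.7%. The part of the hybridisation or of the immunoprecipitation in this was not tested. Across the 180 clones the unnumbered pair and pair 4 correlated at 0.47 (Pearson's r), while pair 3 correlated at -0.11 with the unnumbered pair and at -0.15 with pair 4. Across all 8450 clones those correlations were 0.40, 0.04 and 0.11. By rank (Spearman's rho) they were 0.39, -0.01 and -0.10 for the 180 clones and 0.35, -0.16 and -0.18 for all clones. By rank the correlations with pair 3 were thus below 0 in all clones. In the members the rank correlation of pair 3 was near 0 with the unnumbered pair, at -0.01, and was -0.10 with pair 4. By Pearson's r the correlations with pair 3 were below 0 in the members only. The points of each correlation share their runs, and clones of a gene share their target.

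**Figure D2:**
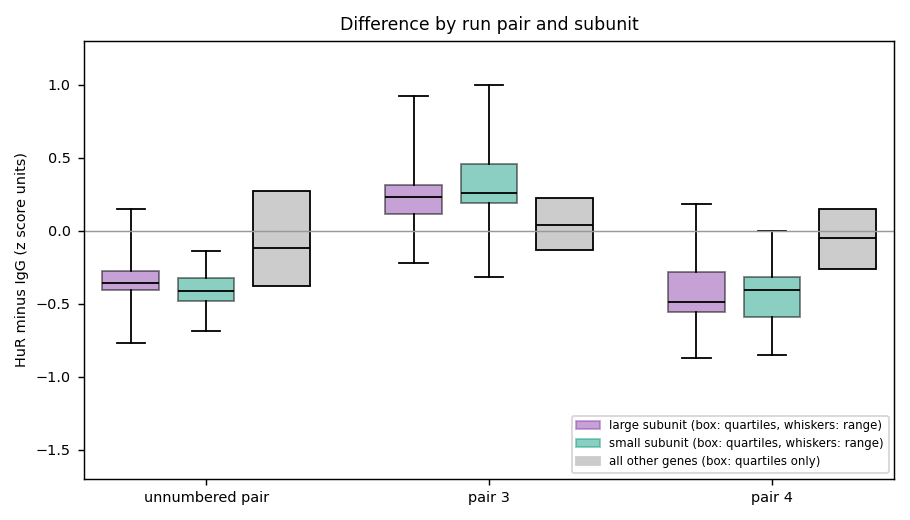
HuR minus IgG difference in z score units (vertical axis) in each run pair, for 42 large subunit genes, 28 small subunit genes and all other genes. Boxes span the quartiles with a line at the median, and whiskers of both subunits span the range. The medians of both subunits lie below 0 in the unnumbered pair and pair 4 and above 0 in pair 3.

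Large and small subunit genes had like medians. Large subunit genes had a median of -0.19 ± 0.38 (SD of the medians of the 3 run pairs), with 37 of 42 below 0 (88.1%) and a range of -0.43 to 0.17. Small subunit genes had a median of -0.21 ± 0.39, with 24 of 28 below 0 (85.7%) and a range of -0.42 to 0.19. Of all genes, 57.5% were below 0. The large subunit median minus the small subunit median was 0.02 ± 0.07 (SD over 3 run pairs), and 0.05 (unnumbered), -0.03 (pair 3) and -0.08 (pair 4) by pair. This difference was smaller than its spread between run pairs and had no steady sign. On the first array section alone, with 32 genes, it was 0.125 ± 0.06 (SD over 3 run pairs), larger than its spread, and on the second it was -0.04 ± 0.06. In the unnumbered run, run 3 and run 4, the large subunit median was 0.76, 1.13 and 0.94 with HuR and 1.12, 0.87 and 1.42 with IgG. The small subunit median was 0.69, 1.12 and 0.94 with HuR and 1.07, 0.86 and 1.41 with IgG.

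**Figure D3:**
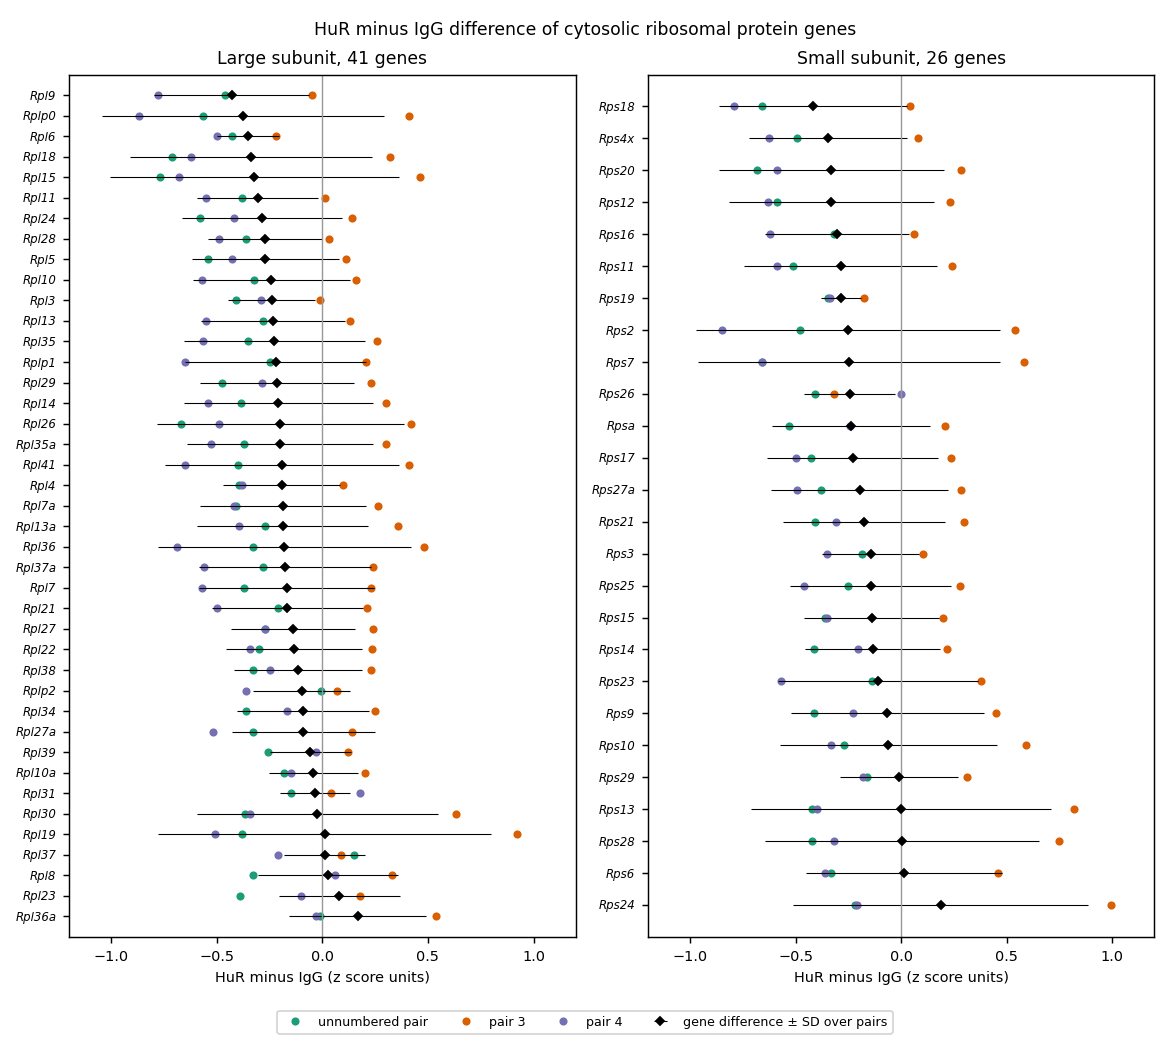
HuR minus IgG difference in z score units (horizontal axis) of 41 large and 26 small subunit genes, one gene a row, lowest at the top. Coloured points are the 3 run pairs and black diamonds the gene difference with its SD over pairs. Rpl9 at -0.43 and Rps18 at -0.42 are the lowest, Rpl36a at 0.17 and Rps24 at 0.19 the highest, and most points of pair 3 lie right of 0.

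The stalk of the large subunit is made of Rplp0, its base, and of Rplp1 and Rplp2, which recruit elongation factors. Rplp0 scored 0.74, 1.65 and 1.29 in the unnumbered run, run 3 and run 4 with HuR, against 1.42, 1.23 and 2.20 with IgG. Its HuR run 3 exceeded 2 of its 3 IgG runs, and its difference was -0.38 ± 0.67 (SD over 3 run pairs) with 4 clones from -0.50 to -0.07. Rplp1 scored 0.28, 0.24 and 0.24 with HuR, against 0.31, 0.54 and 0.92 with IgG, in the same order of runs. Every HuR run of Rplp1 lay below every IgG run, though the differences of its 4 clones had a median of 0.21 in pair 3, and the gene difference was -0.22 ± 0.43. Rplp2 was at -0.10 ± 0.23 on 2 clones.

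Rpl5 and Rpl11 are carried with the smallest ribosomal RNA into the large subunit, and outside the ribosome they bind Mdm2, the ligase that limits p53. Rpl5 scored 1.04, 1.27 and 1.25 with HuR and 1.61, 1.11 and 1.69 with IgG in the unnumbered run, run 3 and run 4. HuR run 3 and run 4 of Rpl5 lay above IgG run 3, and the other IgG runs lay above every HuR run. The Rpl5 difference was -0.27 ± 0.35, and its 5 clones were close together, from -0.34 to -0.25. Most of these clones came from adjoining wells of plate 28, where the clones of genes other than members had a median of -0.22. Rpl11 was at -0.31 ± 0.29 on 1 clone, by pair -0.38 (unnumbered), 0.01 (pair 3) and -0.55 (pair 4). The name of the Rpl11 clone rests on 1 of its Entrez numbers, and the other number and the clone's description name a different gene.

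Rpl3, Rpl8 and Rpl10 lie near the centre where peptide bonds form. Rpl3, with the most clones of all members, was at -0.24 ± 0.21 over 9 clones, which ran from -0.50 to 0.24. Rpl10 was at -0.24 ± 0.37 over 4 clones, from -0.34 to -0.20. Most Rpl10 clones came from adjoining wells of plate 120, and their neighbours on the plate had medians from -0.245 to -0.23. Rpl8 was at 0.03 ± 0.33 over 3 clones, from -0.33 to 0.23, so its clones lay on both sides of 0.

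Rpl4 and Rpl35 line the tunnel through which the new protein leaves and its exit. Rpl4 scored 0.93, 1.03 and 0.96 with HuR, against 1.32, 1.12 and 1.46 with IgG, with no overlap of the runs. Its 6 clones nonetheless ran from -0.41 to 0.07, and the gene difference was -0.19 ± 0.28. Rpl35 was at -0.23 ± 0.43 over 4 clones.

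Among the lowest large subunit genes were Rpl9, Rplp0 and Rpl6, all structural proteins of that subunit. Rpl9 scored 0.45, 1.09 and 0.74 with HuR in the unnumbered run, run 3 and run 4, against 0.91, 1.14 and 1.52 with IgG, a difference of -0.43 ± 0.37 on 1 clone. Rpl6 scored 1.03, 1.15 and 1.21 with HuR, against 1.51, 1.37 and 1.67 with IgG, a difference of -0.35 ± 0.15. In Rpl6 every HuR run lay below every IgG run, whereas the runs of Rpl9 overlapped. The 3 clones of Rpl6 were not alike, with -0.47 and -0.35 in adjoining wells of plate 144 and -0.07 on plate 81. Their neighbours on the source plate had medians of -0.17, -0.21 and 0.19 in the same order. Neighbours of the Rpl9 clone had a median of -0.21, and those of the 4 Rplp0 clones ran from -0.16 to -0.09.

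The highest large subunit genes were Rpl36a, Rpl23, Rpl8 and Rpl19. Rpl36a, an X-linked gene, scored 1.76, 1.69 and 1.58 with HuR in the unnumbered run, run 3 and run 4, against 1.77, 1.15 and 1.61 with IgG. Only IgG run 3 lay apart from the other runs. Its difference was 0.17 ± 0.32, with pair 3 at 0.54 and the other pairs at -0.01 and -0.03. Rpl23, another protein reported to bind Mdm2, was at 0.08 ± 0.28 over 3 clones from -0.25 to 0.34. By pair its clones had medians of -0.39 (unnumbered), 0.18 (pair 3) and -0.10 (pair 4). The 0.08 is the median of the clone means and not the mean of these pair values. The highest Rpl23 clone, at 0.34, lay among raised neighbours with a median of 1.32 on its source plate. Rpl19 was at 0.01 ± 0.79 on 1 clone, by pair -0.38 (unnumbered), 0.92 (pair 3) and -0.51 (pair 4). Among other large subunit genes with 4 or more clones, Rpl7 was at -0.17 ± 0.42, Rpl13a at -0.19 ± 0.40, Rpl29 at -0.22 ± 0.36 and Rpl41 at -0.19 ± 0.55.

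In the small subunit, Rpsa and Rps28 lie around the exit of the messenger RNA channel. Rpsa, which also serves as a laminin receptor, scored 1.06, 1.2 and 1.23 with HuR in the unnumbered run, run 3 and run 4, against 1.6, 0.82 and 1.65 with IgG. Its runs overlapped only through IgG run 3, the lowest of the 6, and its difference was -0.24 ± 0.37 over 7 clones from -0.37 to 0.07. Rps28 was within 0.01 of 0 in the mean, by pair -0.42 (unnumbered), 0.75 (pair 3) and -0.32 (pair 4). On its only clone the table's other gene number and symbol name a subunit of RNA polymerase I.

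Rps6 is the small subunit protein phosphorylated by the S6 kinases in answer to growth signals. Rps6 scored 0.52, 0.82 and 0.70 with HuR in the unnumbered run, run 3 and run 4, against 0.76, -0.01 and 1.06 with IgG. Its IgG runs spanned a wider range than its HuR runs and enclosed them, and its difference was 0.01 ± 0.46 over 3 clones. Rps27a, made as a fusion with ubiquitin, was at -0.20 ± 0.42 on 2 clones. Rps15, a protein near the decoding site, was at -0.14 ± 0.32 over 5 clones. On 2 of the 5 Rps15 clones the table also names Syn1, a synapsin, and these were at -0.34 and -0.06.

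Among the lowest small subunit genes were Rps18, Rps4x and Rps12. Rps18 scored 0.51, 1.47 and 0.94 with HuR in the unnumbered run, run 3 and run 4, against 1.17, 1.22 and 1.71 with IgG, a difference of -0.42 ± 0.45 over 3 clones from -0.46 to -0.34. The Rps18 runs overlapped, with HuR run 3 above 2 of the 3 IgG runs. Rps4x, an X-linked gene, was at -0.35 ± 0.38 on 2 clones and Rps12 at -0.33 ± 0.49 on 1 clone. Neighbours on the source plate had medians of -0.23 and -0.24 for the Rps4x clones and -0.28 for the Rps12 clone. For the 3 Rps18 clones they were -0.20, -0.17 and 0.13.

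The highest small subunit genes were Rps24, Rps6, Rps28 and Rps13, and all 4 were below 0 without pair 3. Rps24, one of the genes mutated in Diamond-Blackfan anaemia, a failure of red cell production, scored 0.76, 0.68 and 0.98 with HuR, against 0.98, -0.32 and 1.19 with IgG. IgG run 3 was the lowest of its 6 values, and its difference was 0.19 ± 0.70, with pair values of -0.22 (unnumbered), 1.00 (pair 3) and -0.21 (pair 4). Its 2 clones, at 0.14 and 0.24, came from adjoining wells, and their neighbours on the source plate had medians of 0.28 and 0.32. With the median of the grid block of the array subtracted, Rps24 was at -0.23 and Rps6 at -0.09, and without pair 3 they were at -0.21 and -0.34. Rps13 was at 0 in the mean, by pair -0.42 (unnumbered), 0.82 (pair 3) and -0.40 (pair 4).

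Few genes kept one direction. Below 0 in all 3 run pairs were 5 of 70 genes (7.14%), against a background of 11.1%, and above 0 in all 3 were 0 of 70, against 11.3%. Among the 5 were Rpl9, at -0.05 in pair 3, Rpl3, at -0.01 in pair 3, Rpl6 and Rps19. The last was named after its values were seen, and like Rps24 it is mutated in Diamond-Blackfan anaemia. Of the clones, 4 of 9 for Rpl3 and 2 of 3 for Rpl6 were below 0 in all 3 pairs. The Rpl6 clone on plate 81 was at 0.69 in pair 3. Rps19 scored 0.72, 0.55 and 0.45 with HuR in the unnumbered run, run 3 and run 4, against 1.07, 0.72 and 0.78 with IgG, a difference of -0.29 ± 0.10 on 2 clones. Its smallest pair difference was -0.18, in pair 3. The 2 clones did not share that direction, with pair 3 at 0.14 on plate 146 and -0.49 on plate 163. Their own differences were -0.26 ± 0.35 and -0.31 ± 0.18, so the SD of 0.10 comes from the median of unlike clones. A gene difference at least as large as its SD over run pairs, and below 0, was found in 8 of 70 genes (11.4%), against 10.3% of all genes. Every HuR run lay below every IgG run in 5 of 70 genes (7.14%), against 2.79% of all genes, among them Rpl4, Rpl6 and Rplp1. Run values and pair differences are separate medians over clones, and Rpl4 and Rplp1 were above 0 in pair 3, at 0.095 and 0.205.

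Of the clones, 18 of 180 were below 0 in all 3 run pairs, against 10.4% of all clones, and 0 of 180 were above 0 in all 3, against 10.2%. Every HuR run lay below every IgG run in 8 of 180 (4.44%), against 2.54% of all clones, and above in 0 of 180, against 4.57%. Among the 8 were 2 clones each of Rpl3 and Rpl6 and 1 each of Rpl4 and Rps26, a small subunit protein at the messenger RNA exit named after its values were seen. The Rpl3 clone at -0.50 scored 0.57, 0.97 and 0.70 with HuR against 1.14, 1.10 and 1.5 with IgG. The Rpl6 clone at -0.47 scored 1.03, 1.13 and 1.21 with HuR against 1.57, 1.40 and 1.81 with IgG. Of these, the Rpl3 clones came from plate 112 and the Rpl6 clones from plate 144. A difference of at least 0.4 units below 0 was found in 15 of 180 clones (8.33%), against 5.1% of all clones, and at least 0.4 above 0 in 0 of 180, against 7.35%.

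Clones of one gene differed about as much as genes did. The pooled SD between clones of one gene was 0.16, and the SD between the 70 gene values was 0.13. The SD over run pairs had a median of 0.38 over the 70 genes. The order of the genes by their difference therefore lies within both spreads. Of 49 genes with several clones, 31 (63.3%) had every clone below 0, against 35.2% of all 660 genes with several clones. The widest range within a gene was 0.74, in Rpl3. Its clones at 0.24 on plate 41 and 0.20 on plate 122 were high in the unnumbered pair, at 0.75 and 0.60, and near 0 in the others. Its 4 clones in neighbouring wells of plate 112 ran from -0.50 to -0.29. Clones of the same gene in adjoining wells, 55 of the 180, may share more than their target, and the part of plate position was not tested by gene.

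**Figure D4:**
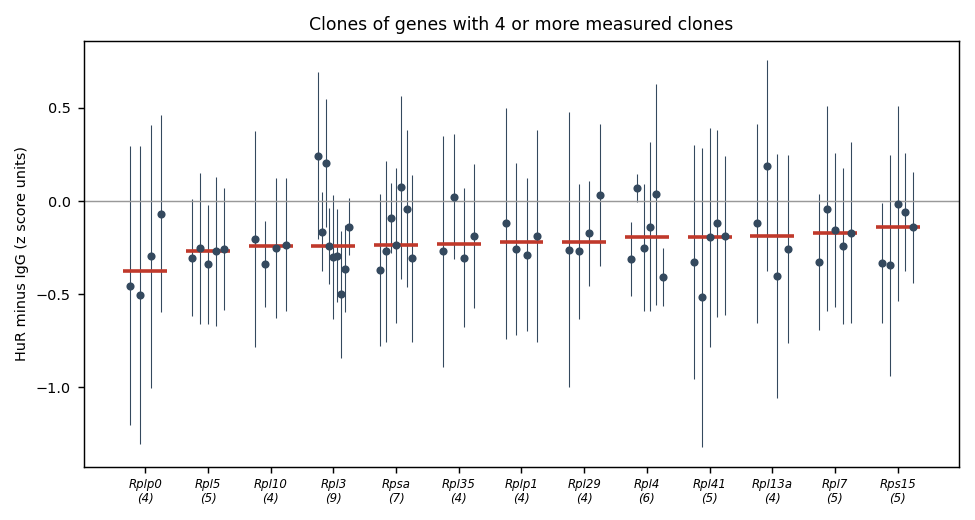
HuR minus IgG difference in z score units (vertical axis) of every measured clone of 13 genes with 4 or more clones, with the number of clones in brackets. Points are clones with the SD over 3 run pairs, and red lines are gene differences. The clones of Rpl5, most of them from adjoining wells of 1 plate, lie between -0.34 and -0.25, and those of Rpl3 between -0.50 and 0.24.

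Source plate, array section and signal level were set beside the result. The 180 clones came from 73 of 176 source plates, with 19 clones on plate 112. On each of the 10 plates with 5 or more member clones, the members' median lay below that of the other clones of the plate. By pair, it lay below on 9 of these plates in the unnumbered pair and on 10 in pair 4. In pair 3 it lay above that of the other clones on 7 of the 10. On plate 112 the members were at -0.30 and the 63 other clones at -0.22. Without plate 112 the group's median was -0.19. Of the 2 sections of the array, the first gave -0.28 over 32 genes and the second -0.16 over 63 genes, and both had medians below 0 in the unnumbered pair and pair 4 and above 0 in pair 3. Member clones between the 85th and 90th percentile of signal had a median of -0.26 over 48 clones, against -0.03 for the 797 other clones of that range. In the top 5% the 18 member clones were at -0.09, against -0.03 for the 827 others, and in pair 4 at -0.02, against 0.17. With the trend of the difference on signal removed by loess, the median of the 70 genes was -0.15, and by pair -0.30 (unnumbered), 0.25 (pair 3) and -0.39 (pair 4), against -0.01 in the mean for all other genes.

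Genes with and without the pyrimidine run at the start had medians within 0.01 of each other. The 20 genes with the run had a median of -0.19 and ranged from -0.42 (Rps18) to 0.19 (Rps24), and the 33 without it had a median of -0.19 and ranged from -0.43 (Rpl9) to 0.17 (Rpl36a). Across the 53 genes, which share all runs, run length and difference correlated at 0.04 (Pearson's r). The median in pair 3 was 0.28 with the run and 0.20 without it, and in pair 4 it was -0.41 with it and -0.43 without it.

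The authors' deposited table gave z ratios from -2.09 to 1.72 for the 188 member clones, with a median of -0.68, against -0.11 for all features. Of the 188 clones, 12 (6.38%) in the authors' deposited table had a two-tailed p under 0.05 and were lower with HuR, against 3.33% of all features, and 0 were higher, against 4.15%. The p was taken as unadjusted. In the authors' deposited table the extremes were dim clones, Rps10 at -2.09 with a p of 0.79 and Rpl38 at 1.72 with a p of 0.30. Those 12, by the authors' deposited table, included clones of Rpl3, Rpl4, Rpl5, Rpl6, Rps4x and Rps26.

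Other genes known for the same pyrimidine start, most of them translation factors and some with other roles, such as Vim, an intermediate filament protein, had a median near that of the members. Of 21 listed genes, 18 were measured, with a median of -0.24 ± 0.27 (SD of the medians of 3 run pairs). Below 0 were 17 of 18 (94.4%), against 57.5% of all genes. By pair this list was at -0.42 (unnumbered), 0.05 (pair 3) and -0.41 (pair 4), beside 0.23 for the members in pair 3, and this gap was not tested. The lowest was Rack1, a scaffold bound to the small subunit, at -0.48 ± 0.38, and the highest Eif3f, an initiation factor subunit, at 0.07 ± 0.30. Fau, which encodes a ribosomal protein as a fusion but is no member by name, is in this list too and was at -0.30 ± 0.34. It was also the lowest of 6 measured paralogs and fusion genes, whose median was -0.09.

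Genes that build the ribosome had a median of -0.04 over 25 measured of 48 listed, as all other genes did. Below 0 were 17 of 25 (68.0%), against 57.5% of all genes. They ran from Mrto4, an assembly factor of the large subunit, at -0.45 ± 0.03 to Nop58, a core protein of box C/D particles that methylate ribosomal RNA, at 0.52 ± 0.28. Neighbours on the source plate had a median of -0.31 for the Mrto4 clone and -0.09 for the Nop58 clone. S6 kinases and other regulators of translation had a median of -0.02 over 7 genes, from Rps6kb2, an S6 kinase, at -0.16 ± 0.29 to Mtor, the kinase above it, at 0.21 ± 0.31. Proteins of the mitochondrial ribosome had a median of 0.02 over 29 genes, with 13 of 29 below 0 (44.8%), against 57.5% of all genes. They ran from Mrpl28 at -0.34 ± 0.32 to Mrps9 at 0.81 ± 0.12. Neighbours on the source plate had a median of -0.32 for the Mrpl28 clone and 1.24 for the Mrps9 clone. By pair the mitochondrial list was at -0.07 (unnumbered), 0.09 (pair 3) and -0.09 (pair 4).

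**Figure D5:**
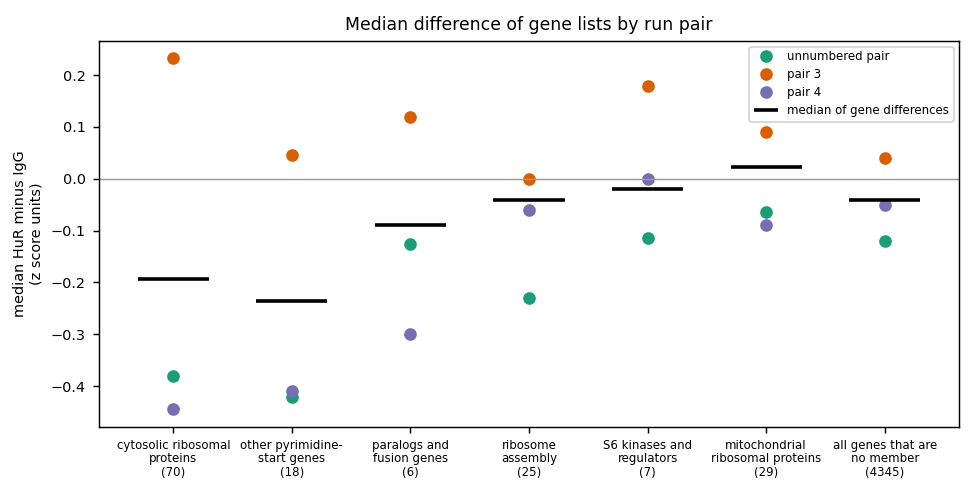
Median HuR minus IgG difference in z score units (vertical axis) of the cytosolic ribosomal protein genes, 5 related gene lists and all genes that are no member, with the number of measured genes in brackets. Points are the 3 run pairs and black lines the median of the gene differences. The cytosolic ribosomal proteins run from -0.45 in pair 4 to 0.23 in pair 3.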

How the data were processed

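Per the file headers, the deposited values are z scores of 3 runs of each antibody, with a mean of 0 and an SD of 1 in each run and array section as checked on the values. The mean score in the other deposited table was the same for every feature. How the authors made the deposited p-value, and their log base and background correction, is not stated in the labels or headers. Left unused were 4 columns of per-sample values, the SD and the number of runs of each antibody. Clones were named by LLID, else by Locus Link, through RefSeq genes of GRCm38.p6 (162 and 20 members), else by the table's symbol (6 members). Runs were centred on their section median, same-numbered runs were subtracted, and clones in the brighter 50% were kept. A gene takes the median of its clones, and its SD is over 3 run pairs. No test was possible, and 1 unit stands in for a fold. Named genes had 4 or more clones, were among the 4 highest or 4 lowest of a subunit, or were fixed by role. Others are said to be so, or stand in counted sets. Some genes that the rule names are not reported here. The members and lists were chosen with earlier results of these data known. The number of arrays limits precision, and the code was tested on simulated data. Python 3.11.15, pandas 2.3.3 and statsmodels 0.14.6 (loess, span 30%) were used.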

Additional observations from a re-analysis of the deposited data

How the results depend on the processing

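The group's median difference of -0.19 ran from -0.42 to -0.06 with 1 run pair left out and from -0.32 to -0.15 under the other 15 alternatives, and was below 0 in each. These were the centring, quantile normalization, loess, signal filters, summaries of clones and of run pairs, array sections, grid block median, shifted neighbours, agreed names and leaving out plate 112 (the last, and the count by order of signs, chosen after seeing the data). Large minus small subunit was 0.125 ± 0.06 (SD over run pairs) on the first array section, -0.02 to 0.00 with 1 run pair left out, and -0.05 to 0.03 under the others. On the first section, which holds 32 of the 70 genes, 29 were below 0, 3 were below 0 in all pairs and 25 were below, above and below 0 in the unnumbered pair, pair 3 and pair 4. Over both sections the shares of all genes were 57.5%, 11.1% and 27.5% in the same order. The shares of all genes on the first section alone are not given. With the grid block median subtracted, 2 genes were below 0 in all pairs, and the share of all genes under that setting is not given. At a threshold of 0.4 units, 15 of 180 clones (8.33%) were lower with HuR in place of 0, against 5.1% of all clones. At that threshold 0 of 180 were higher, against 7.35%. Of 553 values of 32 named genes, 547 moved by less than the SD over run pairs and 6 by more, among them Rpl3 at 0.24 by its brightest clone. That SD is wide, and 42 of the 553 had the other sign or were 0. With the grid block median subtracted, Rps24 was at -0.23 and Rpl19 at -0.24. The causes were not tested. No paired test was possible because the study gives 1 sample for HuR and 1 for IgG. The files hold no background signal, which limits what dim clones show.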
